A study of Mus musculus with 4 samples.

Results

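Cell-adhesion genes of the cadherin, protocadherin, contactin, neurexin, neuroligin, LRRTM, SLITRK and NCAM families were followed in ribosome-bound RNA of the mouse mediobasal hypothalamus. The members were all probes of an Illumina MouseRef-8 v2 beadchip whose gene symbol begins with the name of such a family. There were 135 such probes for 105 genes, among 25697 probes in all for 16593 named genes. The comparison set 2 arrays from Pomc-Cre:RiboTag mice, in which Pomc-Cre mice were crossed to RiboTag mice (lineage arrays), against 2 arrays from Pomc-Cre mice that had received the AAV-DIO-RiboTag viral vector (virus arrays). Both groups thus carry Pomc-Cre, in which Cre is driven by Pomc regulatory sequence. In both, cells make the ribosomal protein RPL22 with a hemagglutinin tag once Cre has acted. Through this tag polysomes were precipitated from punches of the region. In the cross every descendant of a cell that once expressed Cre keeps the tag, which the labels call the Pomc-derived lineage, whereas the Cre-dependent virus tags cells that express Cre after injection, which the labels call adult POMC neurons. The labels used here give no age, sex or number of animals per array, so the spread behind each p-value is that between arrays and could be technical alone. The question asked in the series is which hypothalamic neurons descend from precursors that once expressed Pomc.

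Cadherins are calcium-dependent adhesion proteins that bind mostly their own kind across a cell contact, and the protocadherins are their largest branch. Most protocadherins are encoded in the alpha, beta and gamma gene clusters, from which single neurons express different combinations, and the rest lie outside the clusters. At synapses, presynaptic neurexins bind postsynaptic neuroligins and LRRTM proteins, SLITRK proteins bind receptor phosphatases on the axon, and contactins with their CNTNAP partners organize axonal membrane domains. In the hypothalamus such proteins take part in how neurons sort into nuclei and form synapses.

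A probe was called detected on an array when its deposited detection p-value was under 0.05, and measured when it was detected on at least 2 of the 4 arrays. Of the 135 probes, 80 (59.3%) were measured, for 65 genes, against 12266 of 25697 probes (47.7%) on the whole table. A further 9 were detected on 1 array and 46 on none. All 4 neurexin, 3 neuroligin and 3 NCAM probes were detected on all 4 arrays, and so were 5 of 7 probes for contactin-associated proteins. In the clustered protocadherins 27 of 51 probes were measured, with 4 of 9 in the alpha, 10 of 22 in the beta and 13 of 20 in the gamma cluster. Of 34 cadherin probes 16 were measured, and 16 were detected on no array, among them the single probe for Cdh5, the cadherin of endothelial cells, and all 4 for Cdh3. Arrays of a group correlated at 0.964 (lineage) and 0.968 (virus) over all measured probes, and arrays of different groups at 0.949 to 0.960. Because a probe on the array reads only its own stretch of a transcript, levels of different probes are not compared.

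**Figure D1:**
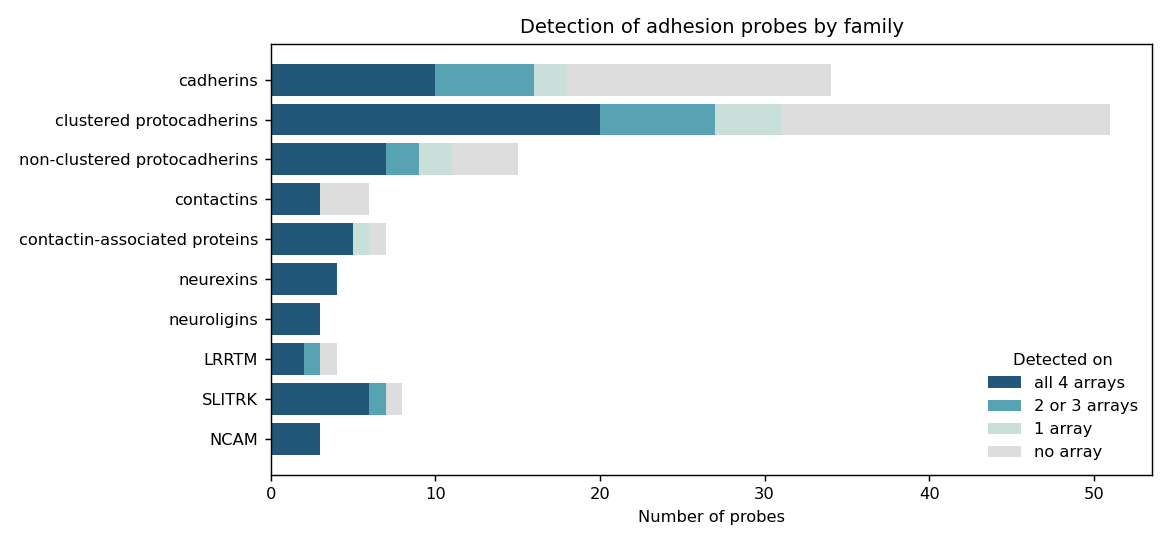
Number of probes per family (horizontal axis), coloured by the number of arrays on which the deposited detection p-value was under 0.05. All neurexin, neuroligin and NCAM probes were detected on all 4 arrays, whereas 20 of 51 clustered protocadherin probes and 16 of 34 cadherin probes were detected on none.

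In the limma fit, 0 of the 80 adhesion probes had an adjusted p under 0.05, as did 0 of all 12266 probes (0%), and the adjusted p of the 80 ranged from 0.295 to 0.994. At an unadjusted p under 0.05 there were 10 of 80 (12.5%), against 10.4% of all probes. Of these, 7 were higher in the lineage arrays (8.75%, against 4.84% of all probes) and 3 lower (3.75%, against 5.55%). The 7 probes stood for Cdh7, Cdh13 (2 probes), Pcdh20, Pcdhga8, Pcdh8 and Ncam2, and the 3 for Cntnap4 (2 probes) and Nrxn3. On the log2 scale the median difference, lineage minus virus, was 0.092 for the 80 probes and 0.0030 for all probes; without virus replicate 2 that of the adhesion probes was -0.0076, and without virus replicate 1 it was 0.15. Means were higher in the lineage arrays for 47 of the 80 (58.8%), against 50.6% of all probes. The lineage arrays both lay above both virus arrays for 22 probes (27.5%, against 21.9% of all probes) and below them for 12 (15%, against 21.4%), and the groups overlapped for 46. A difference of at least 1 in size was seen for 4 probes (5%, against 2.01%), those of Cdh7, Pcdh20 and Cntnap4. The counts rest on few arrays: without virus replicate 1 the unadjusted count was 11 higher and 3 lower, without virus replicate 2 it was 3 and 6, without lineage replicate 1 it was 5 and 6, and without lineage replicate 2 it was 7 and 5. With a trend in eBayes, which lets the expected spread depend on signal, limma called 7 of the 80 at adjusted p under 0.05 (8.75%), against 1.89% of all probes. Of these 5 were higher (Cdh7, Pcdh20, both Cdh13 probes and Ncam2, against 0.815% of all probes) and 2 lower (Cntnap4 and Nrxn3, against 1.08%).

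**Figure D2:**
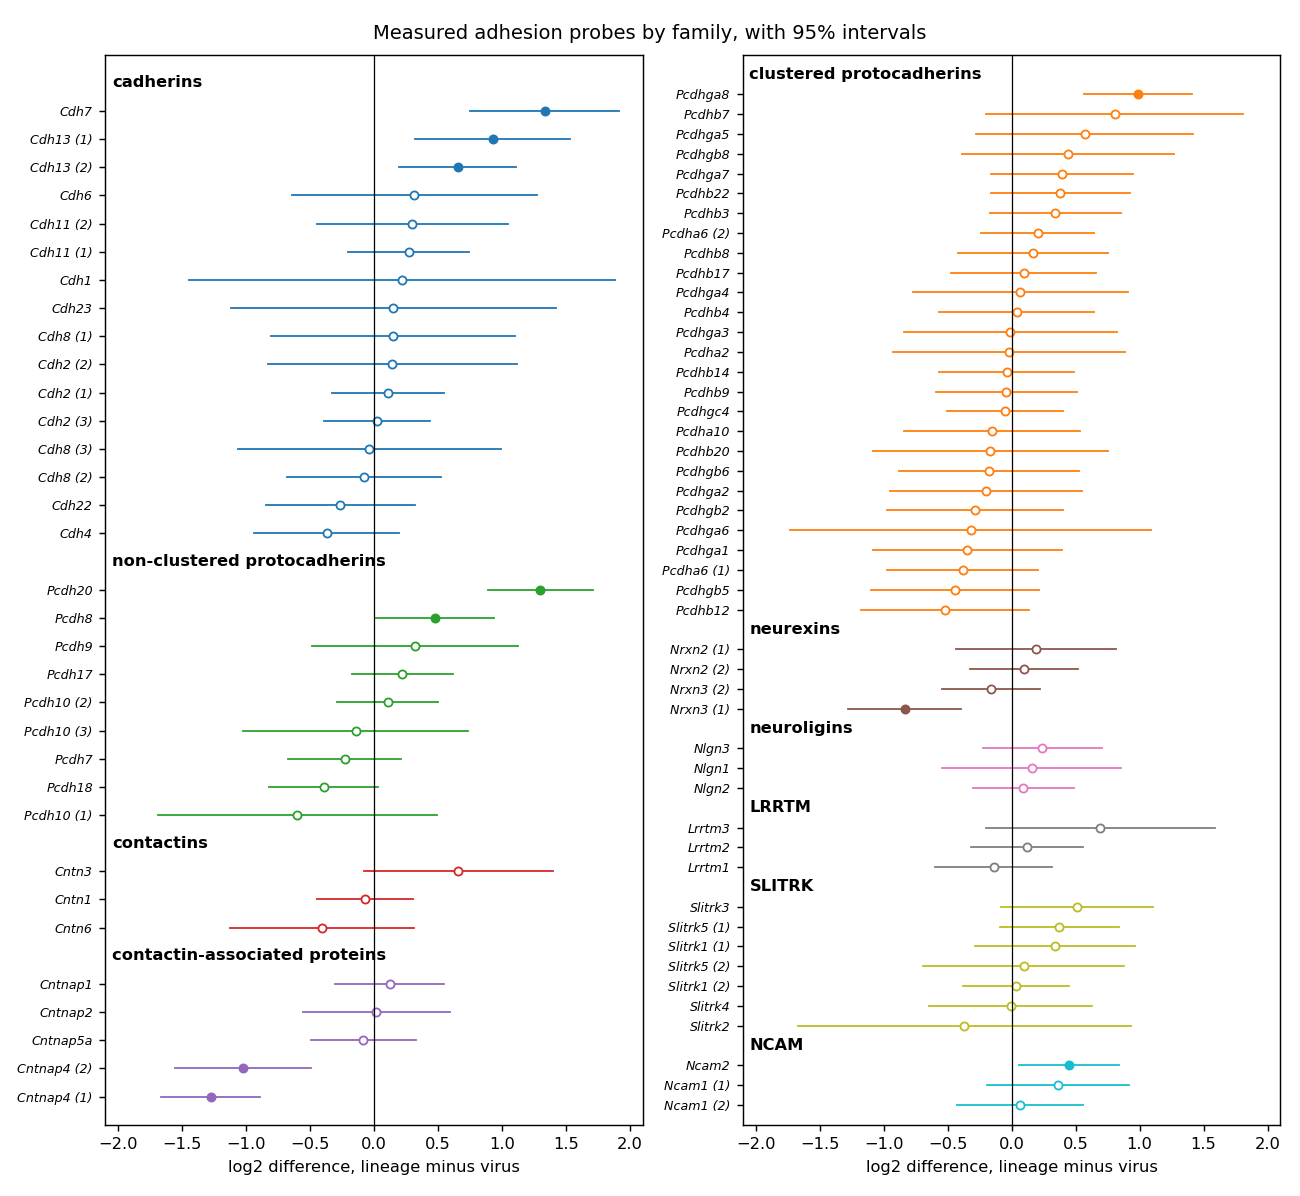
Difference in normalized log2 intensity, lineage minus virus (horizontal axis), for each of the 80 measured probes by family, with 95% intervals of the limma fit as lines. Filled points have an unadjusted p under 0.05, and numbers in brackets tell apart probes of one gene. Cdh7, Pcdh20 and Pcdhga8 lie farthest to the right and the Cntnap4 probes farthest to the left.

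Among the cadherins, the larger differences were in Cdh7 and Cdh13, both higher in the lineage arrays, while the other measured members lay between -0.37 and 0.31. Cdh7, a type II cadherin of developing neural tissue, had normalized log2 intensities of 10.55 and 10.50 on the lineage arrays and 9.45 and 8.93 on the virus arrays. The lineage arrays lay close together, well above virus arrays that differed from each other. The difference was 2.52-fold (log2 1.33, SE 0.22, limma adjusted p = 0.295, 0.00329 with a trend). Cdh13 encodes T-cadherin, which is held in the membrane by a lipid anchor, lacks the usual cytoplasmic part and binds adiponectin. One of its probes was at 10.77 and 10.41 on the lineage arrays against 9.87 and 9.46 on the virus arrays, and its other probe at 11.52 and 11.27 against 10.82 and 10.67. On both probes the lineage arrays stood above the virus arrays, and on the first the gap between groups was of the order of the gap between arrays of a group. The log2 differences were 0.93 (SE 0.23) and 0.65 (SE 0.17), with limma adjusted p of 0.373 and 0.386, and 0.0262 and 0.0253 with a trend.

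The classical neural cadherin Cdh2 (N-cadherin) was detected on all 4 arrays by 3 probes, whose log2 differences were 0.11, 0.14 and 0.025. Their 95% intervals were -0.33 to 0.55, -0.83 to 1.12 and -0.39 to 0.44, so the middle probe was the least precise. Cdh4 (R-cadherin) had the lowest difference of the family, with 9.07 and 8.98 on the lineage arrays and 9.64 and 9.15 on the virus arrays (log2 -0.37, limma adjusted p = 0.606). The groups did not overlap, but the virus arrays differed from each other by more than the lineage mean did from the nearer virus array. Differences of the type II cadherins Cdh6, Cdh8 and Cdh11 lay between -0.079 and 0.31, and Cdh22 was at -0.26. Cdh1 (E-cadherin, of epithelia) and Cdh23, a cadherin of hair-cell tip links, were at 0.22 and 0.15 with SE of 0.63 and 0.48.

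Outside the gene clusters, Pcdh20 stood apart from the other protocadherins in size of difference, and Pcdh8 was higher by less. Pcdh20 was at 11.03 and 11.00 on the lineage arrays and 9.62 and 9.81 on the virus arrays. The arrays of each group lay close together and the groups far apart. The difference was 2.46-fold (log2 1.30, SE 0.16, 95% interval 0.89 to 1.71, limma adjusted p = 0.295, 5.4e-04 with a trend). Pcdh8 encodes arcadlin, a protocadherin that neuronal activity induces in rat hippocampus and that takes part in internalizing N-cadherin. It was at 11.38 and 11.08 on the lineage arrays and 10.79 and 10.72 on the virus arrays (log2 0.47, SE 0.18, limma adjusted p = 0.475, 0.132 with a trend), and its other probe was detected on no array. The lineage arrays were both above the virus arrays, the lower by about as much as the lineage arrays differed from each other. Pcdh18 had the opposite sign, with 8.11 and 8.27 on the lineage arrays against 8.66 and 8.50 on the virus arrays (log2 -0.39, unadjusted p = 0.063 and adjusted p = 0.499, limma). Its groups did not overlap. Pcdh17 was at 0.22, Pcdh9 at 0.32 and Pcdh7 at -0.23. Pcdh10, a further protocadherin of forebrain circuits, gave different signs on its probes: 0.11, -0.14 and -0.60, the last with 8.02 and 7.38 on the lineage arrays and 8.80 and 7.80 on the virus arrays, which overlapped.

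To show what lies upstream of members that were higher in the lineage arrays, the 150 bases before the annotated start are printed for the genes at unadjusted p under 0.05 that have a single start in the RefSeq promoter table (GRCm38.p6), written 5′ to 3′ on the gene's strand. Capitals mark matches, on either strand, to the TATA box (TATAAA), the CCAAT box (CCAAT), a GC box core (GGGCGG) or a homeodomain core motif (TAATTA).
Pcdh20, chr14:88471397-88471546, minus strand: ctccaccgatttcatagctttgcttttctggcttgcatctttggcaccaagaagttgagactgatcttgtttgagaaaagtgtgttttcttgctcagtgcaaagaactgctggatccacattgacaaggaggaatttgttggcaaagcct
Pcdh8, chr14:79771313-79771462, minus strand: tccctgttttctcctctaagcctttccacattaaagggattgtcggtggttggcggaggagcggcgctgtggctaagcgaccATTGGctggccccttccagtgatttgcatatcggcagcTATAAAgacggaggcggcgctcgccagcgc
Ncam2, chr16:81200547-81200696, plus strand: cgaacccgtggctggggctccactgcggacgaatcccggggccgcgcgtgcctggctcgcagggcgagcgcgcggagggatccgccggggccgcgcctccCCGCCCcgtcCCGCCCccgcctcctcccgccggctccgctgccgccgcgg
The Pcdh20 stretch held none of the 4 motifs and 1 CG dinucleotide, with 43.3% G or C. The Pcdh8 stretch held the TATA box once and the CCAAT box once (read on the opposite strand), with 11 CG dinucleotides and 58% G or C. The Ncam2 stretch held the GC box core at 2 places, both on the opposite strand, with 27 CG dinucleotides and 83.3% G or C. These matches do not overlap each other. Over all 32851 stretches of the same length in the table, 7.57% held the TATA box, 24.5% the CCAAT box, 28.6% the GC box core and 2.73% the homeodomain motif, and the median was 4 CG dinucleotides and 54% G or C. The stretches thus differ in kind, and a match is a description of letters and not a site of binding. Cdh7 and Nrxn3 have 3 annotated starts each, and Cdh13 and Cntnap4 are named only; no sequence is shown for Pcdhga8, as for the other clustered protocadherins.

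The clustered protocadherins were spread on both sides of 0, with 12 of 27 measured probes higher and 15 lower by their means and a median of -0.023. Cluster by cluster, the mean was higher in the lineage arrays for 1 of 4 alpha, 6 of 10 beta and 5 of 13 gamma probes. Pcdhga8, of the gamma cluster, was at 8.65 and 8.73 on the lineage arrays and 7.81 and 7.60 on the virus arrays. The groups were well apart, at a signal near the lower end of the detected range. The difference was 1.98-fold (log2 0.99, SE 0.16, limma adjusted p = 0.295, 0.171 with a trend), and without background correction it was 0.41. Its neighbours in the gamma A series did not share this size: Pcdhga7 was at 0.40, Pcdhga5 at 0.57, Pcdhga4 at 0.065, Pcdhga3 at -0.011, Pcdhga2 at -0.20, Pcdhga6 at -0.32 and Pcdhga1 at -0.35. Pcdhb12 had the lowest value of the clusters, with 8.54 and 9.14 on the lineage arrays and 9.27 and 9.45 on the virus arrays (log2 -0.52, limma adjusted p = 0.549). Pcdhb7 lay at 0.81 with an SE of 0.38, and was detected on 1 of 2 virus arrays. The isoforms of a cluster are close in sequence and some share their 3′ exons, so that a probe may read more than the isoform it is named for; probe sequences were not used here.

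Contactins are immunoglobulin-class proteins held in the axonal membrane by a lipid anchor. Cntn1 was at 12.58 and 12.61 on the lineage arrays and 12.67 and 12.66 on the virus arrays, a log2 difference of -0.071 with a 95% interval of -0.45 to 0.31. The arrays of a group were nearly equal, and the groups differed by little. Cntn3 was at 8.38 and 8.96 on the lineage arrays against 8.23 and 7.79 on the virus arrays (log2 0.66, SE 0.28, limma adjusted p = 0.506). Cntn6 was at 9.57 and 10.28 against 10.30 and 10.37 (log2 -0.41, adjusted p = 0.643). Neither overlapped between the groups, but in both the lineage arrays differed from each other by more than the nearest arrays of the groups did.

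Cntnap4 was lower in the lineage arrays on both of its probes. It encodes a neurexin-related protein that, in mouse cortex and midbrain, acts in GABAergic and dopaminergic transmission. One probe was at 9.90 and 9.90 on the lineage arrays and 11.13 and 11.23 on the virus arrays, and the other at 8.20 and 7.79 against 9.09 and 8.95. The first probe had the smaller spread within groups, and neither probe overlapped between the groups. The signal was 2.42-fold higher in the virus arrays on the first probe (log2 -1.28, SE 0.15) and 2.03-fold on the second (log2 -1.02, SE 0.20). Their limma adjusted p were 0.295 and 0.307, and 3.83e-04 and 0.121 with a trend. The 3 other measured members of the family had small differences. They were Cntnap1 (Caspr, of the paranodal junction) at 0.12, Cntnap2 (Caspr2, which clusters potassium channels along the axon) at 0.019 and Cntnap5a at -0.083, with 95% intervals of -0.30 to 0.55, -0.55 to 0.59 and -0.49 to 0.33. None of these intervals reaches the Cntnap4 difference of either probe; the difference between genes was not tested.

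Of the neurexins, Nrxn3 was lower in the lineage arrays on one probe and nearer 0 on the other. The first probe was at 9.24 and 9.50 on the lineage arrays and 10.22 and 10.20 on the virus arrays, and the second at 11.19 and 11.14 against 11.34 and 11.31. On both probes the lineage arrays lay below the virus arrays. The log2 differences were -0.84 (SE 0.17, limma adjusted p = 0.307, 0.047 with a trend) and -0.16 (SE 0.14, adjusted p = 0.734). Neurexin genes make long and short forms from separate starts and are heavily spliced, and which transcripts each probe reads was not determined here. Nrxn2 was at 9.49 ± 0.15 in the lineage arrays and 9.39 ± 0.0093 in the virus arrays on one probe (SD, n = 2; log2 0.095), and at 9.33 ± 0.19 and 9.14 ± 0.36 on the other (log2 0.19). Its groups overlapped on both probes.

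The neuroligins, the postsynaptic partners, differed little. Nlgn1, of excitatory synapses, was at 9.18 ± 0.030 in the lineage arrays and 9.02 ± 0.48 in the virus arrays (SD, n = 2; log2 0.16). Nlgn2, of inhibitory synapses, was at 11.57 ± 0.020 in the lineage arrays and 11.48 ± 0.087 in the virus arrays (log2 0.092, 95% interval -0.30 to 0.48). Nlgn3, found at both kinds, was at 10.70 ± 0.20 in the lineage arrays and 10.47 ± 0.087 in the virus arrays (log2 0.24). The interval of Nlgn1, -0.54 to 0.86, was wider, since its virus arrays differed from each other.

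In the LRRTM family, leucine-rich ligands of neurexins at excitatory synapses, Lrrtm3 was at 8.92 and 8.65 on the lineage arrays and 8.54 and 7.64 on the virus arrays (log2 0.69, SE 0.34, limma adjusted p = 0.554). The groups did not overlap, but 1 virus array lay close to the lower lineage array and the other far below it. Lrrtm2 was at 0.12 and Lrrtm1 at -0.14. In the SLITRK family, Slitrk3, an organizer of inhibitory synapses, was at 8.36 and 8.16 on the lineage arrays and 8.00 and 7.50 on the virus arrays (log2 0.51, SE 0.23, adjusted p = 0.518). Slitrk5 was at 0.37 and 0.092 on its probes, Slitrk1 at 0.34 and 0.030, and Slitrk4 at -0.0095. Slitrk2 was at 7.65 and 7.52 on the lineage arrays and 8.67 and 7.24 on the virus arrays (log2 -0.37, SE 0.49), and was detected on 1 array of each group. Within these families no probe had an unadjusted p under 0.05.

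Ncam2, an immunoglobulin-class adhesion protein known from olfactory axons, was at 12.21 and 12.11 on the lineage arrays and 11.69 and 11.74 on the virus arrays. The groups did not overlap and the arrays of each lay close together. The difference was 1.36-fold (log2 0.45, SE 0.15, limma adjusted p = 0.439, 0.0353 with a trend). Ncam1, which carries polysialic acid in plastic brain regions, was at 10.99 ± 0.067 in the lineage arrays and 10.63 ± 0.32 in the virus arrays on one probe (SD, n = 2; log2 0.36) and at 11.06 ± 0.20 and 11.00 ± 0.16 on the other (log2 0.064).

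**Figure D3:**
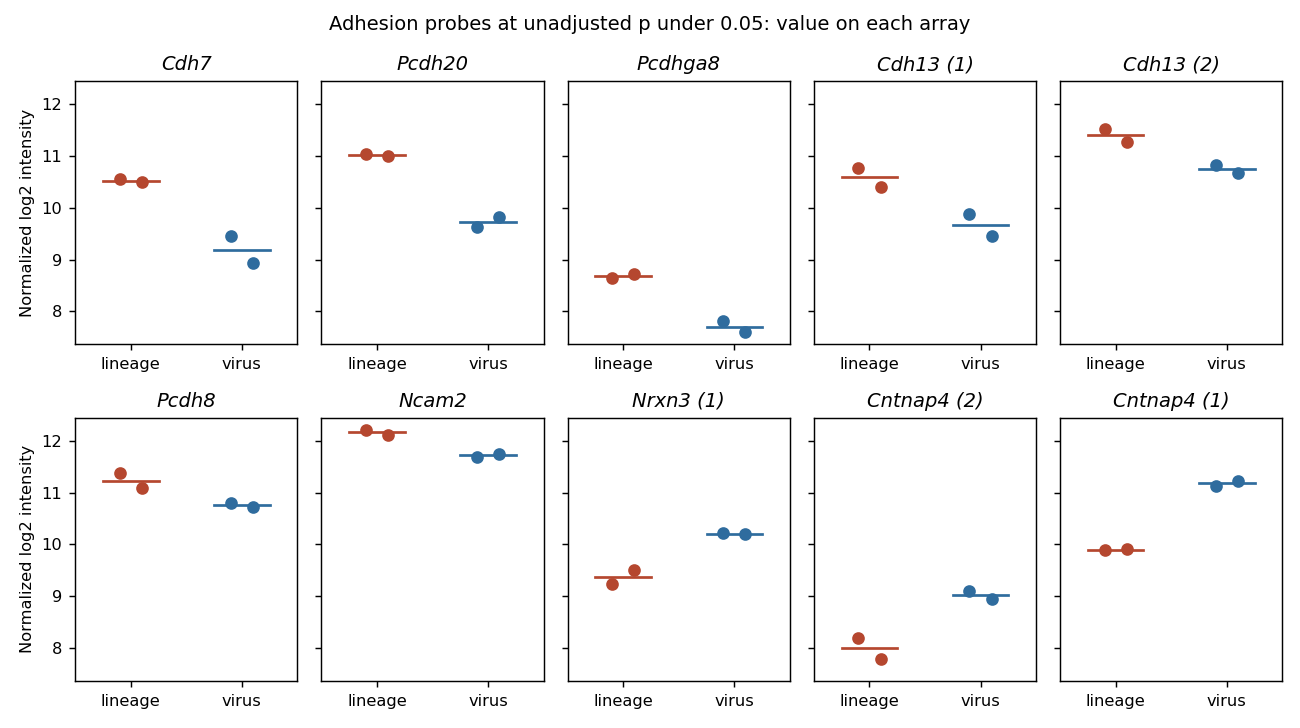
Normalized log2 intensity (vertical axis) on each array for the 10 adhesion probes at unadjusted p under 0.05, with lineage arrays in red and virus arrays in blue; points are arrays and lines group means (n = 2 each). In all 10 panels the groups do not overlap, with 7 probes higher and 3 lower in the lineage arrays. Choosing probes by this p favours groups that do not overlap. Among all measured probes the lineage arrays lay above both virus arrays for 21.9% and below them for 21.4%. Levels of different probes cannot be compared.

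**Figure D4:**
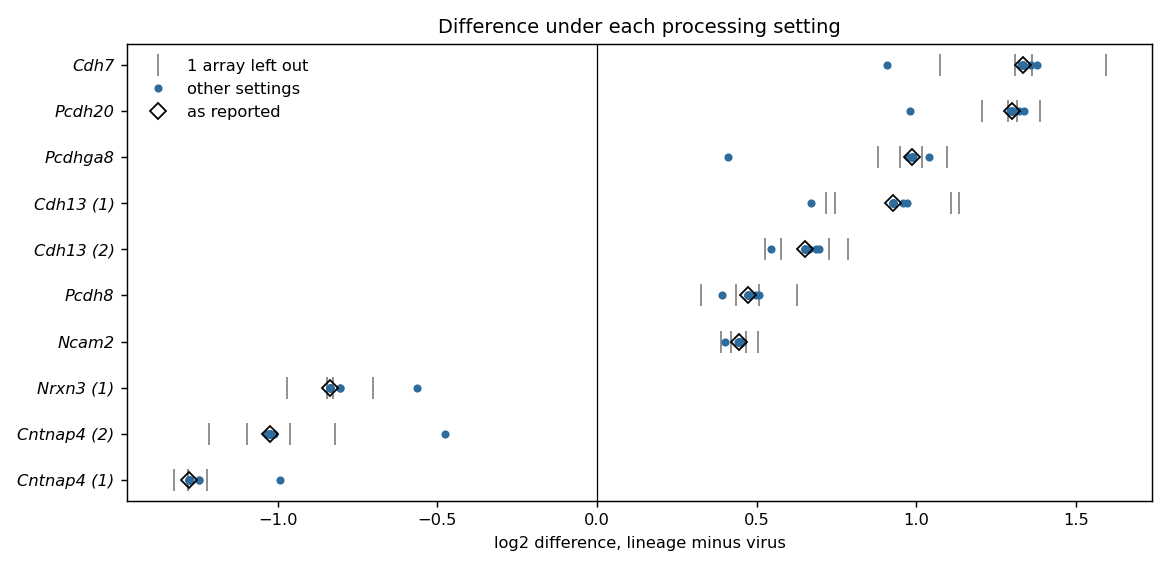
Log2 difference, lineage minus virus (horizontal axis), of the same 10 probes as reported (diamonds), with 1 array left out (grey ticks) and under the other settings (blue dots). No value crosses 0, which the choice of these probes by their p made likely. The difference of Cdh7 ranges from 0.91 to 1.59 and that of the dimmer Cntnap4 probe from -1.22 to -0.47.

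Of the 12 genes with several measured probes, 9 had the same sign on every probe, among them Cdh13, Cntnap4, Cdh2 and Nrxn3, and 3 had opposite signs, Pcdh10, Pcdha6 and Cdh8. Pcdha6 was at 0.20 and -0.38 on its probes. Among the genes at unadjusted p under 0.05, only Cdh13, Cntnap4 and Nrxn3 had a second measured probe; Cdh7, Pcdh20, Pcdhga8, Pcdh8 and Ncam2 rest on 1 measured probe each.

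Genes whose products bind or anchor these proteins, and genes of further neuronal adhesion families, were read from lists. The lists of other immunoglobulin-class proteins and of other leucine-rich and receptor phosphatase organizers hold such further families. The limma adjusted p was under 0.05 for 0 of 130 such probes, and with a trend for 4 (3.08%, against 1.89% of all probes), those of C1ql2 (0.0105), Lrrn3 (0.0139), Flrt3 (0.047) and, lower in the lineage arrays, Kirrel3 (0.0172). At unadjusted p under 0.05, 13 were higher and 3 lower, where the shares of all probes were 4.84% and 5.55%. Of 18 measured probes for other neurexin and neuroligin partners, 2 were higher at unadjusted p under 0.05 and 0 lower: C1ql2, a secreted C1q-like protein that binds neurexin 3, at 10.14 ± 0.13 in the lineage arrays and 8.93 ± 0.28 in the virus arrays (SD, n = 2; log2 1.22, limma adjusted p = 0.295), and Cbln4, a cerebellin, at 0.50. Of 34 probes for other immunoglobulin-class adhesion proteins, 4 were higher and 2 lower. Kirrel3 was at -0.71, Sdk2, a sidekick protein, at 1.10 and 0.84 on its probes and Nectin3 at 0.71 and 0.21. The other lower probe, for Sdk1, was detected on neither lineage array. It passed the filter only through the virus arrays, where it was high, and is also among the 3 lower given above. Of 27 probes for other leucine-rich and receptor phosphatase organizers, 6 were higher and 0 lower. Lrrn3 was at 0.88, Lrfn3 at 0.71 and Flrt3 at 0.47, 0.51 and 0.32 on its probes. Only the first Flrt3 probe was called with a trend, and the others had limma adjusted p of 0.220 and 0.248 there. The 12 probes for catenins and cadherin adaptors held none at unadjusted p under 0.05 (0 higher and 0 lower), with Vcl (vinculin) at 0.54 and Ctnnbip1, an inhibitor of beta-catenin, at -0.52. Of 27 scaffold probes 1 was higher, Magi1 at 0.42 with 0.20, -0.078 and -0.0019 on its other probes, and Homer1 was at 0.36, with 0.18 and -0.38 on its others. Of 12 probes for membrane partners of contactin-associated proteins 1 was lower, Adam23 at -0.58 with 0.37 and -0.016 on its other probes, and Lgi1 was at 0.40 and -0.046. The median differences of these lists were 0.064, 0.082, 0.15, -0.058, -0.066 and -0.0022 in this order, against 0.0030 for all probes.

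Levels of cell type markers, POMC neuron and pan-neuronal ones among them, also differed between the groups by their means. Of all 42 marker probes 0 had a limma adjusted p under 0.05, and 14 did with a trend (33.3%, against 1.89% of all probes). In such precipitates fewer cells of a type and less RNA per cell cannot be told apart. Pomc, the POMC neuron marker whose regulatory sequence drives Cre, was detected on every array (log2 difference 0.65). So were Pcsk1 at 0.98 and Cartpt at -0.064 and -0.015 on its probes, from the same list. The markers called with a trend were Pomc, Npy, Tac2, Kiss1, a Tacr3 probe and Ttr, higher in the lineage arrays, and Avp, Oxt, Hdc, Trh, Pmch, Gja1, an Mbp probe and Rgs5, lower. Normalized intensities of the measured markers of a list were also summed on the linear scale. For kisspeptin neurons the sums were 1860 to 2117 in the lineage arrays and 423 to 493 in the virus arrays. By their means 4 of 4 probes were higher. Tac2 and both Tacr3 probes were detected on neither virus array, and Kiss1 on 1 of 2. The virus sums are thus largely background, and Tac2 and Tacr3 passed the filter only through the lineage arrays, where they were high. Npy was higher by 2.60 on the log2 scale. The sums of vasopressin and oxytocin were 495 to 772 against 5092 to 8563, with 2 of 2 probes lower by their means. Those of other neighbouring neurons were 1831 to 2366 against 5975 to 7068, with 3 of 5 lower by their means (Hcrt was not measured). Among these, Pmch was detected on neither lineage array and passed the filter only through the virus arrays, where it was high. Astrocyte markers summed to 4339 to 4564 against 5906 to 6470. Of these probes 4 of 4 were lower by their means, 2 of them at a limma unadjusted p under 0.05. Oligodendrocyte markers summed to 3968 to 4359 against 5871 to 6216, with 7 of 7 lower by their means and 2 at such a p. Among all 12266 measured probes, 6058 had a lower mean. Gfap and Aqp4 were not measured. In the endothelial and mural list only Rgs5 was measured, at -1.47. Pan-neuronal markers summed to 14131 to 14293 against 13716 to 14310, a sum on which the brightest probe weighs most. Of the 7 pan-neuronal probes 5 had a higher mean and 2 a lower one. The lower ones included Syt1 at -0.48 (limma unadjusted p = 0.032, adjusted p = 0.437). Microglia were represented by Aif1 alone (505 to 612 against 623 to 889), oligodendrocyte precursors by 3 probes (1081 to 1386 against 1279 to 1523) and choroid plexus by Ttr, at 1.75, and Kl, at -0.081 (3790 to 3879 against 3479 to 3642), and no tanycyte or ependymal marker was measured. The part of these shifts in the adhesion values was not tested.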

How the data were processed

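Polysome RNA from 4 samples, 2 per group, was read on 1 beadchip; array position cannot be told apart from group. Per the file headers, the deposited table gives an average intensity per probe, the count of beads, the bead standard error and a detection p-value; GenomeStudio is named in the submitters' processing notes, with no version. Array means were 1111 to 1192, each probe was read from a median of 38 to 39 beads, and 10982 to 12306 probes were detected. The number of arrays limits the precision. A second table of intensity values that the authors processed equals the first after subtracting 416 to 440 and scaling to a mean of 718 (residuals up to 0.0101; medians 122 and 130 on the lineage arrays and 134 and 126 on the virus arrays), and served as an alternative.

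Background correction and normalization used neqc from limma 3.58.1 in R 4.3.3 (normexp from detection p-values, offset 16, quantile, log2), and lineage minus virus was fitted over 12266 probes with lmFit and eBayes, with no covariates, 2 residual degrees of freedom, and Benjamini-Hochberg adjustment over all probes. The fit was also run on simulated data with known changes, whose outcome is not used here. With 2 arrays a group, 0.333 is the smallest two-sided p that exact permutation allows, so it was not used. Symbols are from the platform annotation (23978 probes with 1, 0 with several, 1719 with none); 0 changed through the Entrez identifier. Members and lists were chosen with earlier results of these data known. Genes were named by rule: probes at unadjusted p under 0.05 and the largest difference of each family in each direction. The rule also took other probes of these genes and all neurexins, neuroligins and NCAMs. From each list of partners or further adhesion genes it took the 2 genes of smallest p. Others are named after their values were seen. Same-numbered arrays of the groups did not deviate together (r = -0.024), so the replicate numbers were not taken as pairs.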

Additional observations from a re-analysis of the deposited data

How the results depend on the processing

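Of the 30 named probes, 25 kept their direction under every other setting that tested them, including all 10 at unadjusted p under 0.05. For these 10 this was largely fixed by their choice. Their groups do not overlap, so leaving out 1 array could hardly turn a sign. No filter, detection on all 4 arrays, a trend, the unmoderated linear model and the replicate block leave each difference unchanged. Of the 30, 27 were tested under all 13 other settings, and Lrrtm1, Slitrk2 and a Pcdh10 probe under 10 to 12. The cause of the changes below was not tested. The limma count at adjusted p under 0.05 was 0 for all probes and 0 for adhesion probes; with a trend it was 100 higher and 132 lower, with 5 and 2 among adhesion probes, and without background correction 20 and 25, with 2 (Cdh7 and Pcdh20) and 1 (Cntnap4). Median scaling called 3 and 2 of all probes and the authors' processed values 0 and 1, with no adhesion probe. Under median scaling the limma unadjusted p of Ncam2 and Pcdh8 rose to 0.068 and 0.064. That of Cntn3 fell to 0.046 there. Cyclic loess, no filter, detection on all 4 arrays, an unmoderated linear model, the replicate block and leaving out any array called 0. At unadjusted p under 0.05 the block gave 7 adhesion probes higher and 4 lower; of the named probes it lost Ncam2 and Pcdh8 and gained Lrrtm3 and the Pcdh10 probe at -0.60; no filter gave 5 lower, as did the unmoderated linear model, and leaving out 1 array gave 3 to 11 higher and 3 to 6 lower. The median of the adhesion probes, 0.092, was 0.054 to 0.11 under the settings that kept all arrays and -0.0076 to 0.15 with 1 left out, the lowest without virus replicate 2. With 1 array left out, 5 probes turned sign: the Pcdh10 probe at -0.14 ranged from -0.58 to 0.29 (above 0 without virus replicate 1 or lineage replicate 2, at 0.012 there), the Ncam1 probe at 0.064 from -0.078 to 0.21 (below 0 without virus replicate 2, at -0.052, or lineage replicate 2), Nlgn1 from -0.18 to 0.50 and the Nrxn2 probe at 0.19 from -0.067 to 0.45 (both below 0 without virus replicate 2), and the Nrxn2 probe at 0.095 from -0.013 to 0.20 (below 0 without lineage replicate 2). In a fit without 1 array the lone array of its group is assumed to vary like the others. Without background correction differences of dim probes were smaller, such as -0.47 for the dimmer Cntnap4 probe and 0.41 for Pcdhga8.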

Other observations

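The measured members on chromosome 14, per RefSeq GRCm38.p6, all had a higher mean in the lineage arrays. These were 8 probes of 6 genes, Pcdh8, Pcdh9, Pcdh17, Pcdh20, Slitrk1 and Slitrk5, with differences from 0.030 to 1.30 on the log2 scale and a median of 0.33. Among all 405 measured probes on chromosome 14, 52.3% had a higher mean and the median was 0.017. On chromosome 18, which holds the protocadherin clusters with Cdh2 and Lrrtm2, 16 of 31 member probes had a higher mean, with a median of 0.025. Every measured member also had a higher mean on chromosomes 9, 10, 11, 16 and 19, and none did on 2, 5 and 12. Each of these chromosomes held 1 or 2 member probes. The chromosomes were looked at after the values were seen, and the pattern was not tested.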
